A study of Mus musculus with 12 samples.

Results

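Transcripts of 159 solute carrier genes were compared between mouse livers that had lost Acly and Acss2 in their hepatocytes and control livers. The genes were all rows of the deposited expression table whose symbol had the form of Slc, a family number, the letter a and a member number, outside the Slc25 mitochondrial carriers and the Slc27 fatty acid transporters. Slc7a11, Slc10a1, Slc13a5, Slc16a1, Slc16a6, Slc22a5 and Slc33a1 were also left out. The genes kept made up 159 of the 12284 named genes of the table, from 41 families. The choice went by symbol and used no measured value directly, but it was made with earlier results of these data known. GENCODE M21 lists 289 symbols that match, of which these 159 were in the authors' filtered table. Of the 159, 138 averaged at least 1 log2 CPM (reads relative to library size, on a log2 scale) and 108 at least 3, while 6 sat on the table's floor in at least 1 library. By substrate, 33 carried organic anions and cations, 34 amino acids and peptides, 16 sugars, 24 inorganic ions, 28 metals, 5 nucleotide sugars and 14 vitamins, nucleosides, choline or lipids. The last 5 share the symbol but are not carriers, being scaffolds, a pseudogene and neighbouring or binding partners.

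Polyadenylated RNA was sequenced from 6 double knockout (DKO) and 6 control (WT) livers. All 12 libraries came from Acly f/f; Acss2 f/f mice, so the controls carried the floxed alleles too. At 6 to 8 weeks of age the DKO group received AAV8-TBG-Cre and the WT group AAV8-TBG-GFP, adeno-associated viruses whose TBG promoter is active in hepatocytes. A Western diet began 1 week later and lasted 6 weeks in both groups. By this design other liver cell types keep both genes, which was not measured by cell type. The virus cargo differed between the groups along with the genotype, so the effects of the cargo and of the loss cannot be told apart. Whether each library came from a separate mouse is not stated, and p-values measure the spread between libraries.

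Acly had 4.42 to 6.60 log2 CPM in DKO livers, against 6.56 to 9.35 log2 CPM in WT livers, and Acss2 had 3.59 to 5.74 log2 CPM in DKO against 6.12 to 7.45 in WT. Both were lower in DKO (17.6% and 22% of the WT level; limma adjusted p = 0.0165 and 0.00571), and only Acss2 did not overlap between the groups. On the linear scale the libraries held 905964 to 1087992 CPM in all, and their read depth was unknown. All 15 hepatocyte markers were measured, with Alb at 15.44 ± 0.33 log2 CPM in DKO and 15.67 ± 0.13 in WT (SD, n = 6 each). Their summed CPM took 7.64% to 11.1% of a DKO library and 8.59% to 9.86% of a WT library, and 10 of the 15 were lower in DKO (median log2 fold change -0.17), of which Asgr1 was called. All 19 measured macrophage markers were higher in DKO (median log2 fold change 0.64), with 3 called and 18 below an unadjusted p of 0.05, where 1.74% of all genes were called and 16.4% were below that p. All 12 endothelial and all 12 stellate and fibroblast markers were also higher, by medians of 0.26 and 0.41 with 0 called by limma (5 and 8 below an unadjusted p of 0.05). Of 7 measured cholangiocyte markers 2 rose, of 5 lymphocyte and granulocyte markers 1 rose, of 5 red blood cell genes 0 were called by limma (1 below an unadjusted p of 0.05), and the adipose marker Cfd, the 1 measured of 10 adipose, kidney and muscle genes, fell. In bulk liver RNA, fewer cells of a type and less RNA per cell cannot be told apart.

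Solute carriers are membrane proteins that move small molecules by facilitated diffusion, by exchange, or by coupling to gradients of sodium, protons or chloride. Hepatocytes are polarised. Carriers of the sinusoidal membrane exchange amino acids, sugars, drugs and metals with the blood, and carriers and pumps of the canalicular membrane pass solutes into bile. The Slc22 family takes up organic cations and anions, Slc47 proteins export organic cations in exchange for protons, and Slc17 proteins carry urate, phosphate and other anions.

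In the DKO liver 5 carriers fell and 0 rose by limma. Of these, 4 carried organic ions, among them Slc17a3, Slc22a7 and Slc47a1. The fifth was Slc12a7, a potassium chloride cotransporter. A call meant an adjusted p below 0.05 in limma, with the Benjamini-Hochberg adjustment over all 12284 genes. The 5 were 3.14% of the 159 members, against 1.74% (214 genes) of the table, and the table held 1.12% called lower and 0.619% called higher. At an unadjusted p below 0.05 were 30 members, 10 higher and 20 lower in DKO, which is 18.9% against 16.4% over the table (7.95% higher and 8.47% lower). The groups did not overlap for 5 members, all lower in DKO (3.14%, against 2.17% of the table, where 1.38% were lower and 0.790% higher), among them Slc17a3, Slc12a7, Slc6a13 and Slc9a3r1. The median log2 fold change was -0.01 over the members and 0.00 over all genes, and 7 members differed by at least 1 on the log2 scale, where 368 genes of the table did so. Of the members, 78 were higher and 81 lower in DKO. Their summed CPM was 8601 to 9930 in DKO libraries and 8895 to 9925 in WT libraries.

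**Figure D1:**
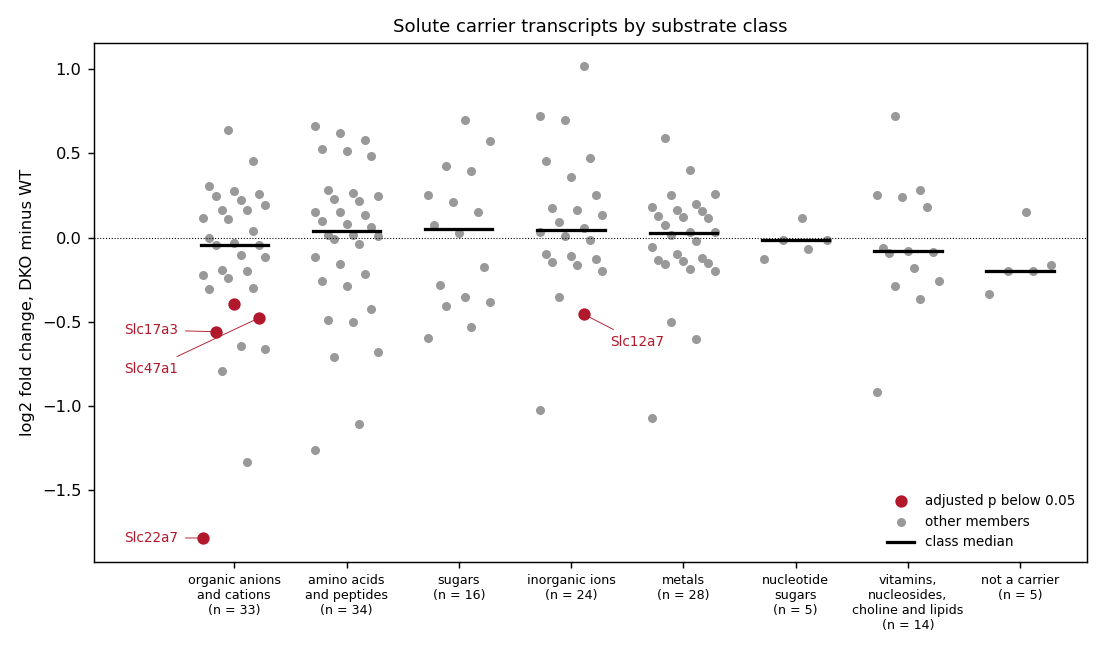
Log2 fold change (DKO minus WT, vertical axis) of each of the 159 members, by substrate class on the horizontal axis; red points were called at an adjusted p below 0.05, grey points were not, and black lines are class medians. Slc22a7 lies lowest at -1.79, and all 5 red points, of which 4 carry their gene's name, are below 0 while every class median is within 0.20 of 0.

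Organic anion and cation carriers, a class drawn up with earlier results of these data known, held 4 of the 5 calls. In this class 4 of 33 members fell (12.1%, against 1.12% of the table) and 0 rose by limma. At an unadjusted p below 0.05 were 11 (33.3%, against 16.4% of the table), 2 higher and 9 lower in DKO. The class median log2 fold change was -0.05, with 13 members higher and 20 lower in DKO. Its summed CPM was 1378 to 1586 in DKO libraries and 1617 to 1847 in WT libraries, without overlap. As a share of each library the sum was 0.144% to 0.164% in DKO and 0.157% to 0.190% in WT, with overlap. The sum includes the 4 called members and was not taken without them.

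Slc47a1 encodes MATE1, which exports organic cations across the canalicular membrane. Its levels were 6.17 to 6.67 log2 CPM in DKO (median 6.60), against 6.65 to 7.14 in WT (median 7.01), overlapping by the lowest WT library alone. It fell to 71.8% of WT (log2 fold change -0.48, SE 0.11, limma adjusted p = 0.0468).

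Slc17a3 encodes NPT4, an organic anion and urate transporter. It had 5.17 to 5.55 log2 CPM in DKO (median 5.38), against 5.64 to 6.17 in WT (median 5.95), and the groups did not overlap. Slc17a3 fell to 67.8% of WT (log2 fold change -0.56, SE 0.09, limma adjusted p = 0.0115), the smallest p among the members. Its exact permutation p was 0.00216, the smallest that 6 against 6 libraries can give, which every gene without overlap reaches. Slc22a7 encodes OAT2, an organic anion transporter of the sinusoidal membrane, and had the largest difference of the 159. Its levels were 2.74 to 4.67 log2 CPM in DKO (median 3.44), against 4.54 to 5.99 in WT (median 5.52). The DKO libraries lay apart from each other, DKO 2, DKO 3 and DKO 5 between 2.74 and 2.90 and DKO 1, DKO 4 and DKO 6 between 3.98 and 4.67. The overlap with WT came from WT 3 alone, at 4.54. Slc22a7 fell to 29.0% of WT (log2 fold change -1.79, SE 0.37, limma adjusted p = 0.0282, exact permutation p = 0.00649). Its spread within the DKO group (SD 0.92) exceeded those of Slc17a3, Slc12a7 and Slc47a1, which ranged from 0.10 to 0.23 in DKO.

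**Figure D2:**
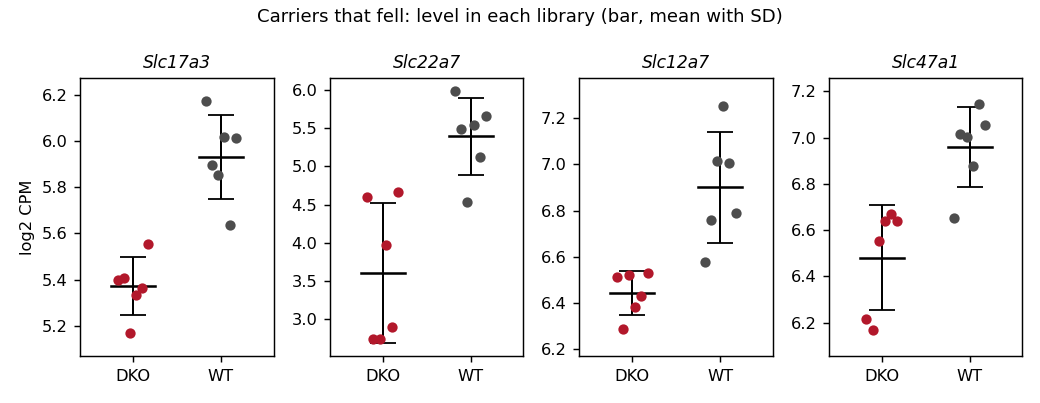
Level (log2 CPM) of 4 carriers that fell, in each DKO library (red) and each WT library (grey); horizontal bars are means and whiskers SD, n = 6 each, and each panel has its own axis. Slc17a3 and Slc12a7 do not overlap between the groups, and Slc22a7 spreads from 2.74 to 4.67 among DKO libraries.

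Slc12a7 encodes KCC4, which moves potassium and chloride out of the cell and was the called member among 24 inorganic ion carriers. It had 6.29 to 6.53 log2 CPM in DKO (median 6.47), against 6.58 to 7.25 in WT (median 6.90), and its DKO libraries were closer together (SD 0.10) than its WT libraries (SD 0.24). Slc12a7 fell to 72.9% of WT (log2 fold change -0.46, SE 0.10, limma adjusted p = 0.0406).

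Only Slc17a3 kept its call with any 1 of the 12 libraries left out, with adjusted p between 0.00727 and 0.0350. Slc22a7 lost it without 7 of the libraries (adjusted p up to 0.0678), and Slc12a7 and Slc47a1 each without 10 (up to 0.0954 and 0.108), while the 5 log2 fold changes stayed negative throughout. The number of members called was 3 without DKO 1 or DKO 2, 2 without DKO 3, WT 3 or WT 5, and 1 without DKO 4, DKO 5, WT 2, WT 4 or WT 6. The count over the table was 92 without WT 5 and 93 without DKO 4. Leaving out WT 1 gave 373 genes and 5 members, and DKO 6 gave 306 and 6. Without the mean trend 1 member was called (Slc17a3) and with quantile normalization 2 (Slc17a3 and Slc22a7). A fit with a block for replicate number called 8 members, 2 of them higher in DKO, Slc20a1 and Slc4a7. Beside the 5 carriers that fell, 10 of the 15 hepatocyte markers were lower in DKO, by the median given above. Their part in the falls was not tested.

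**Figure D3:**
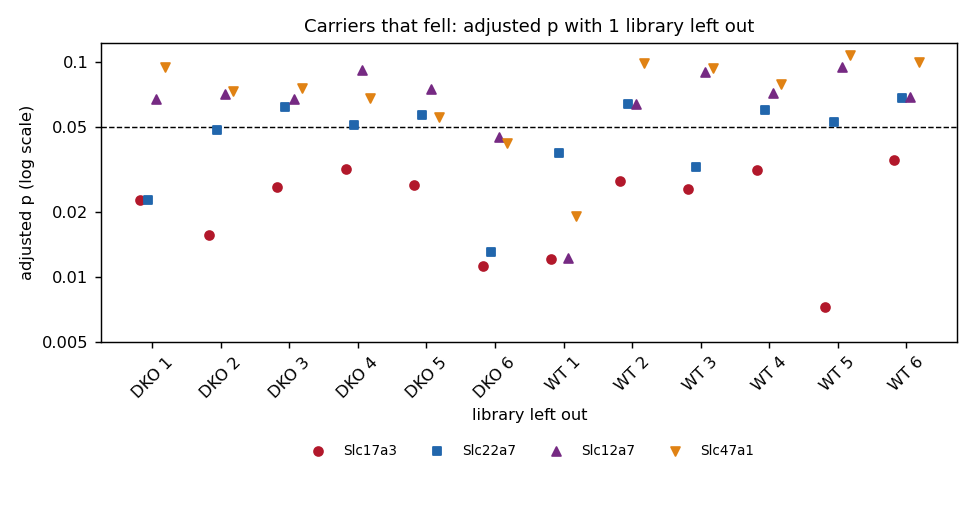
Adjusted p (log axis) of 4 carriers that fell when the library named on the horizontal axis is left out; the dashed line is 0.05. Slc17a3 stays below the line in all 12 fits, with a highest value of 0.0350, and the other carriers lie on both sides of it.

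Promoter sequence from RefSeq (GRCm38.p6) was at hand for 2 of the 5, Slc17a3 and Slc12a7, both on the plus strand of chromosome 13. Their start regions are shown because they are the called carriers with sequence at hand, and the 2 differ in base composition. Each window runs 5′ to 3′ from 250 bases before the annotated start to 50 bases after it. Capitals mark GGGCGG or CACGTG on either strand. Neither window held TATAAA, CAAAGTCCA or the HNF1 motif, also searched on both strands and present in 13.6%, 0.475% and 0.00913% of all windows.
Slc17a3, chr13:23839184-23839483: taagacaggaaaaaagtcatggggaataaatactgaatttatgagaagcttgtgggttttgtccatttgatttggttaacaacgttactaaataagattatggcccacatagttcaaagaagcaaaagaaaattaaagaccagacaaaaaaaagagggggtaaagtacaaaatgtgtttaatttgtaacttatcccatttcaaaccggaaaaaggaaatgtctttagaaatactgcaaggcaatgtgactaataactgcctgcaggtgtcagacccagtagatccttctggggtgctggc
Slc12a7, chr13:73763410-73763709: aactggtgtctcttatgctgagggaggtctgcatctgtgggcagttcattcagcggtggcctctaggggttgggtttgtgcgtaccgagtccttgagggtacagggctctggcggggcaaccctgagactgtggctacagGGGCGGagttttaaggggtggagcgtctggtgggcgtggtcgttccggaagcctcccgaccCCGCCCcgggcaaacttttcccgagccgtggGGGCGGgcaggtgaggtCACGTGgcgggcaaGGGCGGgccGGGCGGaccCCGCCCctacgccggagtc
The Slc17a3 window had 36.7% G and C and 2 CG pairs, and 5.33% of 32851 RefSeq windows of the same length had a lower share of G and C. It held no searched motif. The Slc12a7 window had 66.7% G and C and 23 CG pairs, and 85.0% of windows had a lower share. It held GGGCGG 6 times, a motif present in 35.7% of all windows, and CACGTG once, present in 7.15%. No 2 of these matches overlapped. For Slc12a7 a second start in the table gave a window with 69.3% G and C.

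Among the other organic ion carriers, Slc17a2 is the gene next to Slc17a3 on chromosome 13, followed on the other side of Slc17a3 by Slc17a1 and then Slc17a4. Slc17a2 had 7.01 to 7.58 log2 CPM in DKO, against 7.40 to 7.80 in WT (81.1% of WT, limma adjusted p = 0.201). Slc17a1 and Slc17a4 had log2 fold changes of 0.16 and 0.31, so the 4 neighbours were lower at 2 genes and higher at 2. Slc16a11 and Slc16a13, monocarboxylate transporter family members that stand side by side on chromosome 11, were both lower in DKO. Slc16a11 was at 57.7% of WT (1.85 to 3.52 log2 CPM in DKO and 2.98 to 4.20 in WT, limma adjusted p = 0.146). Slc16a13 was at 39.6% of WT, with a spread from -2.40 to 2.19 log2 CPM in DKO, against 0.15 to 1.69 in WT (adjusted p = 0.280). Slc10a5, of the bile acid cotransporter family, was at 85.6% of WT (adjusted p = 0.223). None of these passed the threshold.

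The 2 members of this class higher in DKO at an unadjusted p below 0.05 were Slc13a3, with 4.11 to 5.02 log2 CPM in DKO against 3.23 to 4.70 in WT (1.56-fold, limma adjusted p = 0.199), and Slc10a3 (1.37-fold, adjusted p = 0.156). Slc13a3 encodes NaDC3, a sodium-coupled carrier of dicarboxylates of the citric acid cycle. All 6 DKO libraries exceeded the WT mean for both. Slc22a30, one of a cluster of mouse organic anion transporters with close paralogs that may share reads, had a median of 7.42 log2 CPM in DKO, against 7.56 in WT (96.8% of WT, adjusted p = 0.931; 95% interval of the log2 fold change -0.42 to 0.33).

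Amino acid and peptide carriers showed no call by limma among 34 members. At an unadjusted p below 0.05 were 6 (17.6%, against 16.4% of the table), 3 higher and 3 lower in DKO. The class median log2 fold change was 0.04, with 20 members higher and 14 lower. Slc38a3 encodes SNAT3, which moves glutamine, histidine and asparagine with sodium. Per kilobase of its longest annotated coding transcript it had the highest level of the 158 members with a length, 524 ± 81.4 CPM per kb in DKO and 524 ± 67.6 in WT (SD, n = 6 each), 19.0% of the WT sum of all members. It had 10.37 to 10.96 log2 CPM in DKO, against 10.48 to 10.93 in WT, at 99.6% of WT with a 95% interval of the log2 fold change from -0.26 to 0.25. Slc7a2 encodes CAT2, the cationic amino acid transporter of hepatocytes, and had 9.57 to 10.29 log2 CPM in DKO, against 9.25 to 10.16 in WT (116% of WT, limma adjusted p = 0.604, 95% interval -0.17 to 0.60). These intervals give the precision of each log2 fold change at the spread of these libraries. The smallest detectable difference was not tested.

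Slc6a13 encodes GAT2, which takes GABA and taurine into hepatocytes, and was the amino acid carrier whose groups did not overlap. It had 7.13 to 7.43 log2 CPM in DKO (median 7.26), against 7.47 to 7.78 in WT (median 7.54). It was at 82.0% of WT but did not pass (log2 fold change -0.29, SE 0.07, limma adjusted p = 0.0685). The exact permutation p of 0.00216 follows from the lack of overlap. Of 21 alternative fits 1 called Slc6a13, that with array weights (limma adjusted p = 0.0383). With 1 library left out, the adjusted p of Slc6a13 was 0.0574 to 0.134. Its neighbour on chromosome 6, Slc6a12, the betaine transporter, had a log2 fold change of 0.08. Slc17a8, the vesicular glutamate transporter VGLUT3, had 3.1 to 5.32 log2 CPM in DKO, against 4.41 to 5.14 in WT (46.4% of WT, limma adjusted p = 0.0864). Of the 6 DKO libraries 5 were below the WT mean, and DKO 3 was the highest of all 12. Without DKO 3, the DKO library above the WT mean, the log2 fold change was -1.43 (limma adjusted p = 0.00114) in place of -1.11. The other 11 fits with 1 library left out did not call Slc17a8, with adjusted p up to 0.168.

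Slc15a3 exports histidine and peptides from lysosomes and is known from macrophages. It had 2.81 to 3.89 log2 CPM in DKO, against 2.24 to 3.27 in WT (1.49-fold, limma adjusted p = 0.193), beside macrophage markers whose summed CPM was 469 to 766 in DKO and 334 to 622 in WT. Slc11a1, the metal transporter of the macrophage phagosome, had 2.68 to 4.17 log2 CPM in DKO, against 3.08 to 3.70 in WT (1.06-fold, adjusted p = 0.920, 95% interval of the log2 fold change -0.47 to 0.63). The part of macrophage content in these values was not tested. Slc38a1, a system A carrier of small neutral amino acids, was 1.54-fold higher (0.47 to 1.93 log2 CPM in DKO and 0.53 to 1.26 in WT, adjusted p = 0.268). The heavy chain Slc3a2, which pairs with several Slc7 exchangers, was at 111% of WT (adjusted p = 0.444). Slc38a4, a system A carrier abundant in liver, was at 140% with a wide spread in both groups (5.22 to 6.83 log2 CPM in DKO and 4.50 to 6.29 in WT, adjusted p = 0.46). Slc16a10, the aromatic amino acid transporter, was at 101% (adjusted p = 0.976).

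Sugar carriers likewise had 0 calls by limma among 16. At an unadjusted p below 0.05 were 4 (25%, against 16.4% of the table), 1 higher and 3 lower in DKO. The class median log2 fold change was 0.05. That median was -0.18 over members averaging at least 1 log2 CPM and -0.23 at a minimum of 3, so its sign depended on the low members. Slc2a2 encodes GLUT2, the main glucose and fructose carrier of hepatocytes, and had 7.91 to 8.44 log2 CPM in DKO (median 8.26), against 8.06 to 8.78 in WT (median 8.52). Each DKO library was under the mean of WT, at 82.1% of WT, but the difference did not pass (limma adjusted p = 0.274). Slc2a9 encodes GLUT9, a urate carrier, and had 4.93 to 5.35 log2 CPM in DKO, against 5.19 to 5.63 in WT (78.4% of WT, adjusted p = 0.0864). Slc2a5, the fructose transporter GLUT5, was at 66.2% of WT (adjusted p = 0.287). Of the 8 Slc2 members 6 were lower in DKO, with 0 called by limma (3 below an unadjusted p of 0.05, 37.5%, against 16.4% of the table). The family median log2 fold change was -0.32, the lowest among families with at least 5 members. The highest was that of Slc7, at 0.25, with 6 of 7 members higher in DKO and 0 called by limma. Slc37a4, which takes glucose 6-phosphate into the endoplasmic reticulum for glucose release, was at 88.5% of WT (adjusted p = 0.662). Slc45a3 was at 75.4% of WT (adjusted p = 0.546). Slc45a4, of a family of sugar and proton cotransporters, was 1.32-fold higher, with 3.18 to 3.99 log2 CPM in DKO against 2.93 to 3.25 in WT (adjusted p = 0.137).

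**Figure D4:**
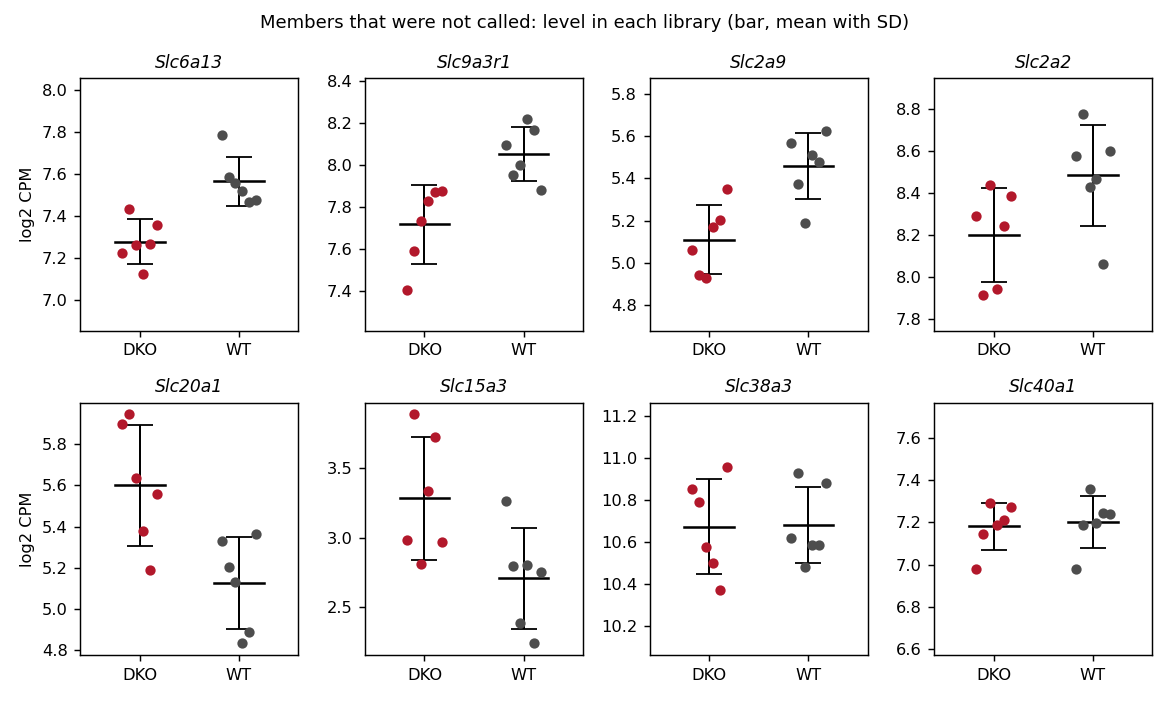
Level (log2 CPM) of 8 members that were not called, in each DKO library (red) and each WT library (grey); horizontal bars are means and whiskers SD, n = 6 each, and each panel has its own axis of at least 1.2 log2 units. Slc6a13 and Slc9a3r1 do not overlap between the groups, whereas the Slc38a3 and Slc40a1 groups lie over each other.

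Inorganic ion carriers held Slc12a7 as their 1 call among 24 (4.17%, against 1.74% of the table). At an unadjusted p below 0.05 were 4 (16.7%, against 16.4% of the table), 3 higher and 1 lower in DKO. The class median log2 fold change was 0.05. Slc20a1 encodes PiT-1, a sodium phosphate cotransporter, and was the closest to a rise, with 5.19 to 5.94 log2 CPM in DKO (median 5.60), against 4.83 to 5.36 in WT (median 5.17). All 6 DKO libraries exceeded the WT mean, at 1.39-fold (0.47 on the log2 scale with SE 0.14, adjusted p = 0.0977 in limma). Its paralog Slc20a2 was at 100% of WT (adjusted p = 0.984, 95% interval -0.21 to 0.22). Slc4a7, a sodium bicarbonate cotransporter, was 1.65-fold higher (median 3.16 log2 CPM in DKO and 2.28 in WT, adjusted p = 0.163). Of the 7 Slc12 members 4 were higher in DKO. Slc4a4, the hepatocyte sodium bicarbonate cotransporter NBCe1, was at 92.8% of WT (adjusted p = 0.753) and Slc26a1, the sulfate and oxalate exchanger, at 110% (adjusted p = 0.762).

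Metal carriers were the class with the narrowest differences among those with at least 14 members. Their median absolute log2 fold change was 0.15, against 0.16 over all genes and 0.20 over all members. By limma 0 of 28 were called. At an unadjusted p below 0.05 were 4 (14.3%, against 16.4% of the table), 1 higher and 3 lower. The summed CPM of the class was 1190 to 1251 in DKO libraries and 1225 to 1276 in WT libraries. Slc40a1, ferroportin, the iron exporter, had 6.98 to 7.29 log2 CPM in DKO, against 6.98 to 7.36 in WT (98.6% of WT, adjusted p = 0.932, 95% interval of the log2 fold change -0.19 to 0.15). Slc39a14 encodes ZIP14, which takes up iron, manganese and zinc, and was at 92.1% of WT (7.76 to 8.11 log2 CPM in DKO and 7.82 to 8.26 in WT, adjusted p = 0.534). Slc31a1, the copper importer CTR1, had the smallest spread of all members (pooled SD 0.09). It had 7.15 to 7.43 log2 CPM in DKO, against 7.41 to 7.6 in WT (87.1% of WT, adjusted p = 0.141), overlapping by a narrow margin. Slc39a4, the zinc importer ZIP4, ranged from 0.53 to 3.37 log2 CPM in DKO and from 2.97 to 3.78 in WT (47.5% of WT, adjusted p = 0.161). Slc39a13, a zinc carrier of the secretory pathway, was 1.32-fold higher (adjusted p = 0.234). The manganese exporter Slc30a10 was at 89.5% of WT with a wide spread (3.80 to 5.63 log2 CPM in DKO and 3.80 to 5.42 in WT, adjusted p = 0.857).

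Neither nucleotide sugar carriers nor carriers of vitamins, nucleosides and choline had a call by limma, and 0 of their 5 and 14 members were below an unadjusted p of 0.05. Slc29a1, the equilibrative nucleoside transporter ENT1, was at 94.1% of WT (7.62 to 7.96 log2 CPM in DKO and 7.27 to 8.33 in WT, adjusted p = 0.814). Slc19a2, a thiamine carrier, was at 94.8%, the choline carrier Slc44a1 at 95.7% and the ascorbate carrier Slc23a1 at 113% of WT (adjusted p = 0.872, 0.850 and 0.684). Slc35a3, Slc35a4 and Slc35a5 were at 108%, 91.4% and 98.8% (adjusted p = 0.683, 0.822 and 0.979). Slc5a6, the sodium-dependent multivitamin transporter, which carries biotin and pantothenate, had the widest spread of all members (pooled SD 2.66). It stood at the table's floor of -3.26 log2 CPM in DKO 4 and DKO 5 and reached 4.24 in DKO 3, against -0.44 to 3.83 in WT, so no difference could be read from it (adjusted p = 0.787).

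Of the 5 members that are not carriers, Slc9a3r1 encodes NHERF1, a scaffold that holds transporters at the apical membrane. It had 7.41 to 7.88 log2 CPM in DKO (median 7.78), against 7.88 to 8.22 in WT (median 8.05), and the groups did not overlap, by a narrow margin. It was at 79.3% of WT without passing (limma adjusted p = 0.0864). Its exact permutation p of 0.00216 follows from the lack of overlap. Its paralog Slc9a3r2 was at 111% of WT (adjusted p = 0.587), and Slc7a6os, a gene opposite Slc7a6, was at 87.0% of WT (adjusted p = 0.354). Whether counting used the strand is not stated, so the Slc7a6os value may hold reads of Slc7a6. Slc7a6 itself was not among the measured members.

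Among 35 ABC transporters 1 rose (2.86%, against 1.74% of the table), and the median log2 fold change was -0.04. The gene that rose was Abcb1b, a canalicular export pump for drugs (2.11-fold, limma adjusted p = 0.0389). Its level was low, 0.73 to 1.86 log2 CPM in DKO and -0.24 to 0.50 in WT. Of 7 Slco carriers and 21 pumps and channels 0 were called by limma, with medians of 0.19 and 0.07. At an unadjusted p below 0.05 were 2 and 4 (28.6% and 19.0%, against 16.4% of the table). Among 15 carrier partners and iron handling genes 1 fell (6.67%), Tfr2, an iron sensor of hepatocytes, to 70.7% of WT (adjusted p = 0.0211).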

How the data were processed

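The authors deposited 1 table of log2 CPM whose name calls it filtered and normalized; how the filter, added count and scaling were set was not given in the sources used here. According to the submitters' processing notes the tools were limma, edgeR and kallisto 0.46.2 and the build GRCm39, without saying what each did. Of its rows 1 had no name (0.0075% to 0.0148% of CPM) and was left out. Groups came from the genotype labels. All 12284 genes were fitted with limma 3.58.1 in R 4.3.3 (lmFit, eBayes with the mean trend, 2-sided, 12 libraries, no covariate or filter), checked on simulated data; members were read off that fit. Exact permutation tests were 2-sided over all 924 divisions into 6 and 6. Depth is unknown, so precision rests on the spread between libraries. Members, substrate classes and lists were chosen with earlier results of these data known.

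Named members were all called or non-overlapping ones, the 2 largest differences per class and direction at an unadjusted p below 0.05 and a mean of at least 1 log2 CPM, the 3 with the highest mean per class, and a fixed list of well-known liver carriers. Outside this rule, and chosen after their values were seen, were Slc16a13, Slc10a5, Slc17a1, Slc17a4, Slc6a12, Slc5a6, and the called genes of other lists. Some members, 1 of them called, are not reported by name here. Levels per length used the longest coding transcript in GENCODE M21. Alternatives were no mean trend, robust eBayes, log2(CPM + 1), minimum means of 1 and 3, subtracted medians, quantile normalization, a block for replicate number, array weights and each library left out. Figures used matplotlib 3.10.9.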

Additional observations from a re-analysis of the deposited data

Results flagged for a closer look

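In 98 groups of 6 values (49 genes in 2 groups), 4 values stood apart by Dixon's test at the 95% level. Chance alone marks about 1 group in 20, and WT 1 held 2 of the 4 values. Acss2 was highest in WT 1, at 7.45 log2 CPM, with the next WT library at 6.50. Slc6a13 was also highest in WT 1, at 7.78 log2 CPM against 7.59 for the next. Slc17a8 had 5.32 log2 CPM in DKO 3, with the next DKO library at 3.84. Slc45a4 was lowest in WT 5, at 2.93 log2 CPM, with the next at 3.14.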

How the results depend on the processing

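All 5 called members stayed lower in DKO under the 21 alternatives. Members called numbered 1 without the mean trend (138 genes over the table; organic ion carriers 1, inorganic ion carriers 0), 2 with quantile normalization (109 genes; 2 and 0), 7 with array weights (356 genes; 2 amino acid carriers) and 8 with the replicate block. Same-numbered libraries correlated at -0.08 to 0.29 in their deviations from group means; as not every pair exceeded 0.1 and no label ties the numbers to a shared batch, they were not taken as pairs. That 7 of 12 libraries correlated best with their own number is a hint towards pairing from the data, not the design. The block called 397 genes and 8 members, 2 of them higher in DKO (1 sugar and 3 inorganic ion carriers): it added Slc20a1, Slc2a9 and Slc4a7 (adjusted p = 0.0258, 0.0385 and 0.0429 by limma). The other alternatives called 5. The sugar median was -0.18 and -0.23 with the 2 filters on low means.

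Leaving out 1 library gave 1 to 6 members called, all lower in DKO, and 92 to 373 genes: 1 to 4 organic ion carriers, 0 to 1 amino acid, sugar and inorganic ion carriers, and a metal median of -0.028 to 0.040. Members near 0 changed sign. With quantile normalization Slc38a3 was at 0.23, Slc40a1 at 0.085, Slc22a30 at 0.057, Slc29a1 at 0.034 and Slc39a14 at 0.013. Slc20a2 was at -0.015 with subtracted medians and -0.061 with array weights, and Slc16a10 at -0.00816 and -0.00766. With 1 library left out, the range was -0.079 to 0.22 for Slc11a1, -0.088 to 0.075 for Slc16a10, -0.17 to 0.026 for Slc19a2, -0.046 to 0.062 for Slc20a2, -0.17 to 0.065 for Slc22a30, -0.0014 to 0.22 for Slc26a1, -0.21 to 0.00078 for Slc29a1, -0.39 to 0.00029 for Slc30a10, -0.11 to 0.099 for Slc35a5, -0.0624 to 0.055 for Slc38a3, -0.065 to 0.0203 for Slc40a1. Depth is unknown and set no limit that could be given. The cause of these changes was not tested.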
